A study of Saccharomyces cerevisiae with 6 samples.

Results

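The 10 genes described here, INO1, ITR1, CHO1, PSD1, CHO2, OPI3, HNM1, CKI1, CPT1 and EPT1, encode proteins of inositol and phospholipid synthesis in budding yeast and are known targets of the transcription factors Ino2 and Ino4. They are 10 of the 5449 genes tested on Affymetrix yeast arrays. The genes were listed by function, with earlier results of these data known, and the probe set of each gene was chosen by its mean signal over the 6 arrays. That choice decided nothing, since each of the 10 genes had 1 probe set, so the values below are those of every member. The list's count is a description of these genes and no independent evidence.

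The study compared 3 samples of the nab2-1 mutant with 3 of the wild type, 1 array per sample. The wild type was strain W303-1A. The mutant was the same strain with the chromosomal NAB2 gene replaced by HIS3. It carried the nab2-1 allele on a centromeric plasmid with the LEU2 marker. HIS3, the plasmid and its marker thus also separate the groups, and their part cannot be told apart from that of the allele. Both strains were grown in rich YPD medium to exponential phase. The protein Nab2 is essential, coats the poly(A) tails of nuclear mRNAs and serves in their export.

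Yeast makes phosphatidylcholine by a pair of routes. In the first, phosphatidylserine is made from CDP-diacylglycerol, decarboxylated to phosphatidylethanolamine and then methylated in steps. In the second, the Kennedy pathway, choline or ethanolamine taken up from the medium is phosphorylated, activated and joined to diacylglycerol. Many of these genes carry an inositol-sensitive promoter element bound by the Ino2-Ino4 heterodimer. The repressor Opi1 restrains them when inositol is plentiful and is held outside the nucleus by phosphatidic acid and Scs2 when it is not.

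All 10 genes were lower in nab2-1, by 2.02-fold to 6.32-fold. OPI3 and INO1 fell most and CHO2 least, and the median difference was -1.62 on the log2 scale against -0.05 over all genes. In limma's test with Benjamini-Hochberg adjustment over the 5449 genes, all 10 passed the threshold of 0.05 on the adjusted p, the largest being 4.7e-06 for HNM1. Of all genes tested, 37.2% were called lower and 30.2% higher. All 10 genes also fell at least 2-fold, as did 3.96% of all genes. In each of the 10 genes the 3 mutant values lay below the 3 wild type values, as they did in 41.1% of all genes. Ranked from the largest fall, 4 of the 10 genes were among the 50 lowest differences of the array and 9 among the 100 lowest.

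**Figure D1:**
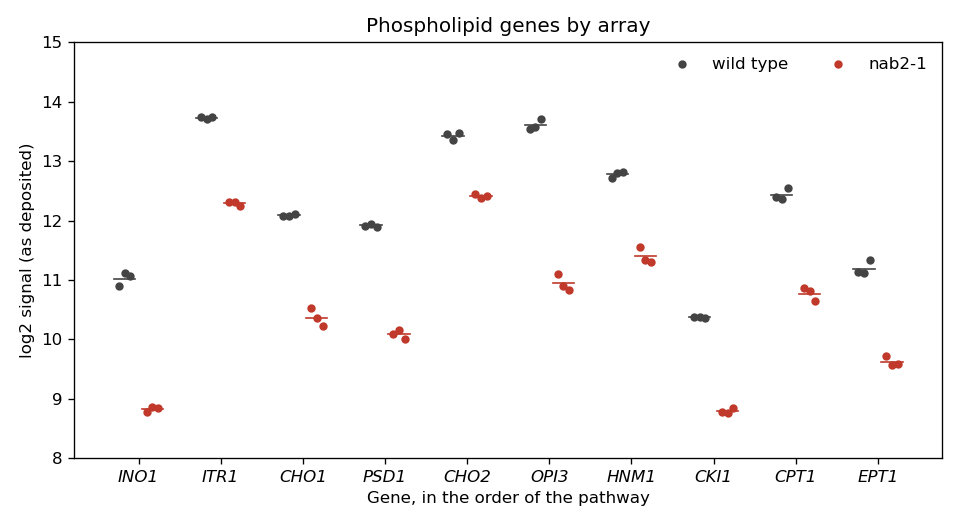
Log2 signal (vertical axis) of the 10 phospholipid genes on each of the 6 arrays, with 3 wild type arrays in grey and 3 nab2-1 arrays in red and a short line at each group's mean. The groups are apart in every gene, with the smallest gap, 0.91, in CHO2 and the widest, 2.44, in OPI3.

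Inositol supply rests on the INO1 product, inositol-3-phosphate synthase, which makes inositol from glucose-6-phosphate, and on Itr1, the major inositol transporter. The log2 signal of INO1 was 8.78, 8.85 and 8.84 in the nab2-1 arrays and 10.89, 11.11 and 11.06 in the wild type arrays. INO1 thus fell by 2.20 ± 0.07 (limma's moderated SE, n = 3 arrays per group), or 4.59-fold. Its mutant arrays lay closer together than those of the wild type. ITR1 gave a log2 signal of 12.32, 12.32 and 12.24 in nab2-1 and 13.75, 13.70 and 13.74 in the wild type. It fell by 1.44 ± 0.05, or 2.71-fold, with a range within each group far smaller than the difference. ITR2, the gene of the second inositol transporter, differed by 0.10 ± 0.04 (limma adjusted p = 0.083) and did not pass as deposited; relative to the median of its chromosome it was higher by 0.20 (limma adjusted p = 0.0071).

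CHO1 and PSD1 encode consecutive enzymes, phosphatidylserine synthase and the mitochondrial phosphatidylserine decarboxylase that makes phosphatidylethanolamine. CHO1 had a log2 signal of 10.52, 10.36 and 10.22 in nab2-1 and of 12.08, 12.08 and 12.11 in the wild type. CHO1 fell by 1.72 ± 0.08, or 3.30-fold. Its mutant arrays had the largest SD of the list, 0.15, against 0.019 for its wild type arrays. PSD1 had a log2 signal of 10.093, 10.164 and 10.003 in nab2-1 and of 11.92, 11.95 and 11.89 in the wild type. Its fall of 1.83 ± 0.06, or 3.56-fold, was close in size to that of CHO1. PSD2, which encodes the decarboxylase of the endosomal and vacuolar membranes, fell by 0.67 ± 0.09 (limma adjusted p = 0.00053).

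The methylation of phosphatidylethanolamine is carried out by Cho2, which adds the first methyl group, and Opi3, which adds the later ones. CHO2 gave a log2 signal of 12.45, 12.38 and 12.41 in nab2-1 and of 13.46, 13.35 and 13.48 in the wild type, a fall of 1.02 ± 0.05 or 2.02-fold. OPI3 gave a log2 signal of 11.10, 10.90 and 10.83 in nab2-1 and of 13.54, 13.57 and 13.70 in the wild type. OPI3 fell by 2.66 ± 0.08, or 6.32-fold, the largest fall of the 10 genes, and ranked number 11 from the lowest difference on the array. CHO2, the smallest fall, ranked number 204.

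The remaining 4 genes act in the Kennedy pathway. Hnm1 is the choline transporter and also takes up ethanolamine. HNM1 had a log2 signal of 11.55, 11.34 and 11.30 in nab2-1 and of 12.72, 12.79 and 12.82 in the wild type, and fell by 1.38 ± 0.07, or 2.61-fold. CKI1, the gene of choline kinase, had a log2 signal of 8.78, 8.75 and 8.84 in nab2-1 and of 10.37, 10.37 and 10.36 in the wild type. It fell by 1.58 ± 0.05, or 2.99-fold, and its wild type arrays had the smallest SD of the list, 0.0041.

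Cpt1 and Ept1 are related transferases that complete the pathway, Cpt1 as cholinephosphotransferase and Ept1 as ethanolaminephosphotransferase. CPT1 had a log2 signal of 10.86, 10.81 and 10.65 in nab2-1 and of 12.39, 12.36 and 12.54 in the wild type, a fall of 1.66 ± 0.07 or 3.16-fold. EPT1 had a log2 signal of 9.72, 9.56 and 9.58 in nab2-1 and of 11.13, 11.11 and 11.33 in the wild type, a fall of 1.57 ± 0.08 or 2.97-fold. The falls of these 4 genes lay within a narrow span, from -1.66 to -1.38. The genes of the steps between kinase and transferase changed far less. PCT1, which encodes the enzyme that makes CDP-choline and sets the rate of the choline branch, differed by -0.18 ± 0.05 (limma adjusted p = 0.022), and ECT1, its ethanolamine counterpart, by -0.19 ± 0.04 (limma adjusted p = 0.0065). EKI1, the ethanolamine kinase gene, fell by 0.45 ± 0.07 (limma adjusted p = 0.00098). PSD2, ITR2, PCT1, ECT1 and EKI1 were picked as the counterparts of members after their values were seen. Scaling to spiked control RNA, described below, moves every difference up and put PCT1 at 0.097, ECT1 at 0.088 and EKI1 at -0.18, none past the threshold. PSD2 was still lower on that scale, at -0.39 (limma adjusted p = 0.019), and ITR2 was higher, at 0.37 (limma adjusted p = 0.026). Calls on that scale rest on the size of the difference alone, as described below.

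To see whether genes of like steps fell unequally, the difference in log2 signal between the 2 genes was taken within each array for 5 pairs and compared between strains. OPI3 minus CHO2 was -1.34, -1.48 and -1.58 in nab2-1 and 0.08, 0.21 and 0.23 in the wild type. OPI3 thus fell by 1.64 ± 0.08 (ordinary SE from the 3 values per group) more than CHO2. INO1 fell by 0.76 ± 0.09 more than ITR1, and CKI1 by 0.20 ± 0.09 more than HNM1. In these 3 pairs the groups did not overlap, and the two-sided exact permutation test gave p = 0.10, the smallest it can give with 3 arrays against 3, and 0.167 after Benjamini-Hochberg adjustment over the 5 pairs. The groups overlapped for CPT1 minus EPT1, which differed by -0.09 ± 0.05 (exact permutation p = 0.20, adjusted 0.25), and for PSD1 minus CHO1, at -0.11 ± 0.08 (exact permutation p = 0.30, adjusted 0.30). With 3 arrays against 3, this test cannot pass a threshold of 0.05 for any pair.

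The replicates varied little beside these falls. The SD of a member ran from 0.032 to 0.15 in nab2-1 and from 0.0041 to 0.12 in the wild type, and the median gene of the array had SDs of 0.078 and 0.065. Within nab2-1, replicate 1 was the highest of its group in 6 of the 10 genes and replicate 3 the lowest in 6. Averaged over the 10 genes, replicate 1 lay 0.066 above and replicate 3 0.060 below the mean of their group, while over all genes the same arrays lay within 0.011 of it. Every member stood well above the level of probe sets without target RNA, taken as the 95th percentile of the probe sets for the other yeast on the array, 4.27 on the log2 scale: the lowest group mean was 8.79, of CKI1 in nab2-1.

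**Figure D2:**
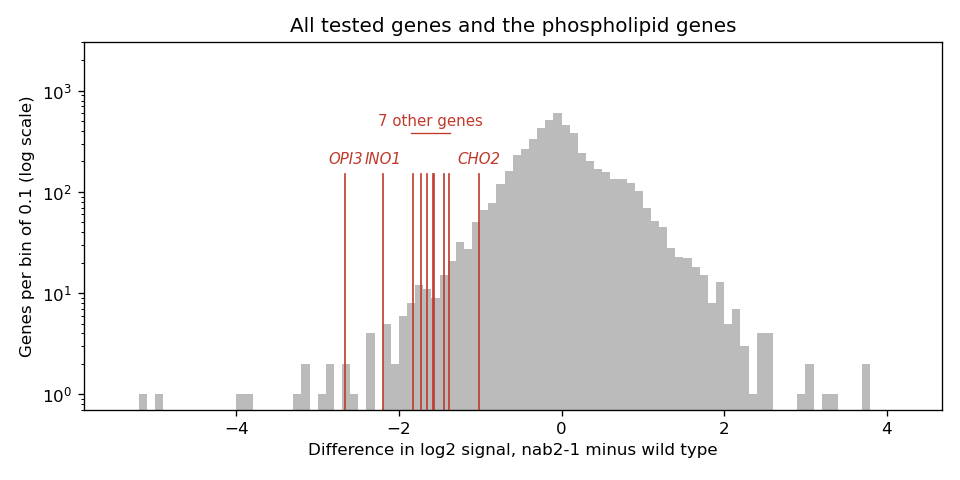
Number of genes per bin (vertical axis, log scale) by difference in log2 signal, nab2-1 minus wild type, for the 5449 genes tested, with red lines at the 10 phospholipid genes. All 10 lie in the lower tail, from OPI3 at -2.66 to CHO2 at -1.02.

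The array as a whole differed widely between the strains. Correlations between arrays across genes were 0.994 to 0.998 within a strain and 0.940 to 0.947 between them, and 2028 genes were called lower and 1644 higher. NAB2 itself was higher in nab2-1, by 1.35 ± 0.07 (limma adjusted p = 4.9e-06); the position of its probes relative to the lesion is unknown here, so this does not check the labels. Chromosomes I, XI and XVI were raised as a whole, with median differences of 0.73, 0.77 and 0.75. This rise also separates the groups, and its part in the differences of genes on other chromosomes was not tested. The 10 genes lie on 7 other chromosomes, whose medians were between -0.12 and -0.077, and relative to the median of its own chromosome each remained between -2.54 and -0.91. Because total RNA of whole cultures was measured, fewer cells that express a gene and less RNA per cell cannot be told apart.

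The scaling of the arrays changes the size of these falls but in no case their direction or call. Scaling the arrays to Bacillus poly(A) RNA spiked in as a control raised the median difference over all genes by 0.27. Each array was shifted by its own factor, so the spread within a group changed too. Of all calls, 77.4% were then higher, against 44.8% as deposited. On that scale 622 of the 5449 genes were called lower and 2133 higher. The 10 genes were then lower by a median of 1.35 on the log2 scale, from -2.39 for OPI3 to -0.74 for CHO2. All 10 were still called lower. On this scale limma's adjusted p followed the size of the difference alone, whatever a gene's own spread. DGR1 and DBP3, with SEs of 0.15 and 0.055 as deposited, differed by -0.71 and 0.71 on it. Their limma adjusted p was 7.6e-06 and 7.7e-06. Calls on this scale thus amount to a cutoff on the difference and are unlike those as deposited.

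The mRNAs of both activators and of the repressor were lower as well. OPI1, the repressor gene, which is itself a known Ino2/Ino4 target, fell from 11.40 ± 0.06 (SD) to 9.84 ± 0.04, a fall of 1.56 ± 0.05 (SE) or 2.96-fold (limma adjusted p = 9.4e-07). INO2 fell by 1.01 ± 0.07, or 2.02-fold (limma adjusted p = 1.5e-05), and INO4 by 0.67 ± 0.06, or 1.59-fold (limma adjusted p = 3.3e-05). The fall of OPI1 was thus of the size seen for CKI1 and EPT1, and that of INO2 of the size seen for CHO2. CBF1, a DNA-binding factor gene of methionine gene control and of centromeres, fell by 0.87 ± 0.07 (limma adjusted p = 2.9e-05).

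Of the 16 genes known to act in this control, 11 were called lower (68.8%, against 37.2% of all genes and 43.2% of those off chromosomes I, XI and XVI) and 2 higher, with a median of -0.34. With quantile normalization, relative to chromosome medians or with the replicate block, 9 were lower. The 2 that were higher were ISW2, a chromatin remodeller gene, at 0.27 ± 0.06 (limma adjusted p = 0.0043), and SPO7, which encodes a subunit of the phosphatase complex acting on Pah1, at 0.79 ± 0.05 (limma adjusted p = 1.3e-05). SPO7 lies on chromosome I and was at 0.056 relative to the median there (limma adjusted p = 0.39). With the spiked controls as the scale, 4 of the 16 were lower and 2 higher, against 622 and 2133 of all 5449 genes. Their median was -0.07, against 0.22 over all genes.

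Other genes of glycerophospholipid metabolism did not share one direction; differences between these groups of genes were not tested. Of 31 such genes, 15 were called lower (48.4%) and 7 higher (22.6%), with a median of -0.14. Over all genes these shares were 37.2% and 30.2%, and over genes off chromosomes I, XI and XVI 43.2% and 19.8%. Of the 31 genes, 6 lie on those chromosomes. The largest falls were those of NTE1, a phospholipase gene that breaks phosphatidylcholine down to glycerophosphocholine, at -1.48 ± 0.08 (limma adjusted p = 4.4e-06), and of CDS1, the gene of CDP-diacylglycerol synthase, at -1.25 ± 0.05 (limma adjusted p = 1.4e-06). ALE1, a lysophospholipid acyltransferase gene, followed at -1.01 ± 0.07 (limma adjusted p = 1.6e-05). CDS1 makes the lipid that Cho1 uses and is itself known to respond to inositol.

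The largest rise in that group was that of GDE1, whose product releases choline from glycerophosphocholine. GDE1 rose by 1.88 ± 0.05, or 3.68-fold (limma adjusted p = 5.5e-07). It lies on chromosome XVI and was still at 1.13 relative to the median there. SAC1, a phosphoinositide phosphatase gene, and SPO14, the phospholipase D gene, were higher by 0.89 ± 0.09 (limma adjusted p = 7.2e-05) and 0.68 ± 0.06 (limma adjusted p = 5.8e-05), but both are genes of chromosome XI and, relative to the median there, stood at 0.13 and -0.08, not past the threshold. PIS1, the phosphatidylinositol synthase gene on chromosome XVI, chosen after its value was seen, was higher by 0.37 ± 0.05 (limma adjusted p = 0.00055) as deposited but at -0.39 relative to the median of its chromosome (limma adjusted p = 0.00057). On the scale of the spiked controls, 7 of the 31 were lower and 10 higher, against 622 and 2133 of all 5449 genes. Their median was 0.14, against 0.22 over all genes.

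Fatty acid synthesis, whose central genes FAS1, FAS2 and ACC1 are also known Ino2/Ino4 targets, was split as well. Of 18 genes, 9 were called lower (50%) and 7 higher (38.9%), with a median of -0.21. The shares were 37.2% and 30.2% over all genes, and 43.2% and 19.8% over genes off chromosomes I, XI and XVI. Among the 18 genes, 3 lie on those chromosomes. Relative to chromosome medians 11 of the 18 were lower and 5 higher. On the spiked scale 5 were lower and 8 higher, against 622 and 2133 of all 5449 genes. The median was then 0.07, against 0.22 over all genes. FAS1 and FAS2, the fatty acid synthase genes, were higher by 0.28 ± 0.05 (limma adjusted p = 0.0013) and 0.35 ± 0.05 (limma adjusted p = 0.00059), but they lie on the raised chromosomes XI and XVI and were lower relative to the medians there, at -0.48 (limma adjusted p = 0.00012) and -0.41 (limma adjusted p = 0.00036). ACC1, the acetyl-CoA carboxylase gene on chromosome XIV, differed by -0.15 ± 0.07 (limma adjusted p = 0.12) and did not pass. The synthase genes thus lay, on either reckoning, outside the span of the 10 phospholipid genes. That span was -2.66 to -1.02 as deposited and -2.54 to -0.91 relative to chromosome medians.

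Among the other fatty acid genes, FAA1 and FAA3, of acyl-CoA synthetases, fell by 1.19 ± 0.10 (limma adjusted p = 3.7e-05) and 1.08 ± 0.05 (limma adjusted p = 3.1e-06), and ELO2, a fatty acid elongase gene, by 0.81 ± 0.05 (limma adjusted p = 7.5e-06). FAA2, a peroxisomal acyl-CoA synthetase gene, rose by 0.98 ± 0.07 (limma adjusted p = 1.3e-05) and OLE1, the desaturase gene, by 0.48 ± 0.08 (limma adjusted p = 0.0017). ACS1, an acetyl-CoA synthetase gene on chromosome I, was higher by 0.77 ± 0.10 (limma adjusted p = 0.00032) and was at 0.037 relative to that chromosome.

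Cho2 and Opi3 take their methyl groups from S-adenosylmethionine, and genes of its supply were lower too. Of 9 genes that make or recycle it, 7 were called lower (77.8%) and 2 higher (22.2%), with a median of -0.53. Over all genes the shares were 37.2% and 30.2%, and off chromosomes I, XI and XVI 43.2% and 19.8%. SAM2, a synthetase gene, fell by 2.93 ± 0.04, or 7.63-fold (limma adjusted p = 6e-08), while the methionine synthase gene MET6 differed by -2.37 ± 0.09 (limma adjusted p = 1.5e-06) and MET13, a methylenetetrahydrofolate reductase gene, by -2.11 ± 0.07 (limma adjusted p = 9.4e-07). SAM1, the close copy of SAM2, named here after its value was seen, fell by 0.29 ± 0.05 (limma adjusted p = 0.0014), and was at -0.02 when scaled to the spiked controls (limma adjusted p = 0.92). The 2 genes are nearly identical in sequence and may share probes, so their separate values are uncertain. The genes that were higher, SAM4 and MET12, are genes of chromosome XVI, and relative to the median there they stood at -0.019 and -0.0011. Scaled to the spiked controls, 4 of the 9 were lower and 2 higher, against 622 and 2133 of all 5449 genes. Their median was -0.26, against 0.22 over all genes.

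**Figure D3:**
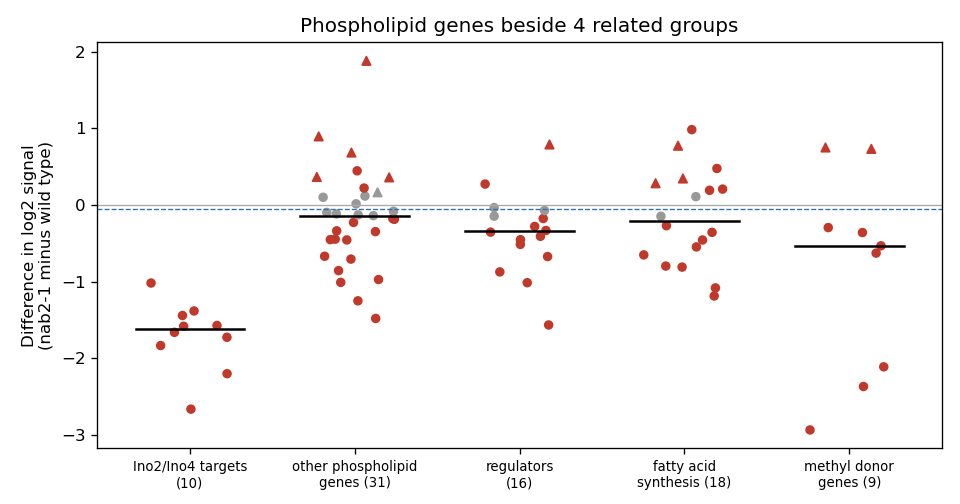
Difference in log2 signal, nab2-1 minus wild type (vertical axis), of each gene in the 10 Ino2/Ino4 targets and 4 related groups, with the number of genes in brackets. Red marks pass the threshold and grey ones do not, triangles are genes of chromosomes I, XI and XVI, black lines are group medians (-1.62, -0.14, -0.34, -0.21 and -0.53 from left to right) and the dashed line is the median of all genes, -0.05.

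Genes next to the 10 were then examined to see whether the falls extended along the chromosome. The nearest tested gene on each side gave 20 neighbours, of which 9 were called lower and 4 higher, with a median of -0.10. As shares these are 45% and 20%, near the 43.2% lower and 19.8% higher over the 4642 genes off chromosomes I, XI and XVI. Of the 19 neighbours other than DGR1, whose fall has only a lower bound, 2 fell at least 2-fold. These were MOG1, beside OPI3, and USB1, beside CKI1. MOG1 encodes a nuclear transport factor that binds the Ran GTPase, and USB1 a nuclease that trims U6 RNA. MOG1 had a log2 signal of 9.08, 9.18 and 9.06 in nab2-1 and of 10.93, 10.85 and 10.91 in the wild type, and fell by 1.79 ± 0.05, or 3.46-fold (limma adjusted p = 7.9e-07). USB1 had a log2 signal of 7.44, 7.33 and 7.31 in nab2-1 and of 9.11, 9.14 and 9.18 in the wild type, and fell by 1.78 ± 0.05, or 3.44-fold (limma adjusted p = 7.5e-07).

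By the strand letter of the systematic names, MOG1 and USB1 are the 2 divergent neighbours among the 20, each sharing the region between the gene starts with OPI3 or CKI1. This split by orientation was made after the values were seen. USB1 fell somewhat more than CKI1, and MOG1 less than OPI3. Of the 14 tandem neighbours, 6 were called lower and 4 higher, and the 13 without DGR1, which is described next, ran from -0.55 to 0.56; the 4 convergent ones ran from -0.40 to -0.02, with 1 called lower. No promoter sequence was used here, so shared elements were not looked for.

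Of the other neighbours called lower, DGR1, beside CPT1, was under the level of probe sets without target RNA in nab2-1, so its fall is given as at least 1.20-fold (limma adjusted p = 0.00073). The others called lower were SEC20 at -0.55, GAL83 at -0.43, APC1 at -0.40, FMP41 at -0.39, VPS35 at -0.26 and PDC5 at -0.18. When the arrays were scaled to the spiked controls, 3 of the 20 neighbours were lower and 5 higher, against 622 and 2133 of all 5449 genes. PTI1, PUF6, NPA3 and DBP3, beside CHO2, ITR1, OPI3 and HNM1, were higher by 0.56, 0.44, 0.44 and 0.44.

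**Figure D4:**
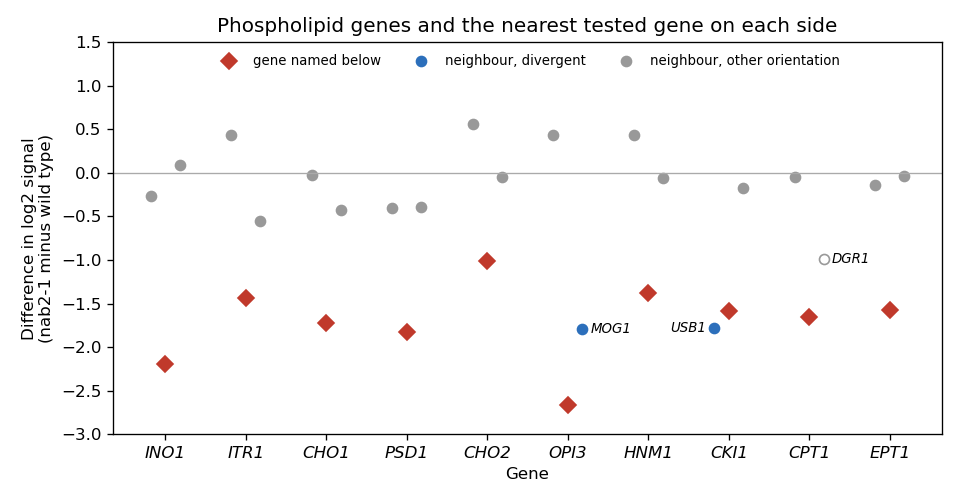
Difference in log2 signal, nab2-1 minus wild type (vertical axis), of the 10 phospholipid genes (red diamonds) and of the nearest tested gene on each side (circles, set left and right by position). The blue circles are the 2 divergent neighbours, MOG1 at -1.79 and USB1 at -1.78, and 17 others, in grey, lie between -0.55 and 0.56; the open circle is DGR1, whose nab2-1 signal is under the level of probe sets without target RNA, so that its fall is only a lower bound.

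The genes most like INO1 and OPI3 over the 6 arrays were found by the Euclidean distance between log2 values centred on each gene's mean. With 2 groups this measure follows mainly the size of the difference between strains. For INO1 the 3 nearest were MET13 at a distance of 0.22, TMN2 at 0.26 and HO, the mating-type switching endonuclease gene, at 0.27. TMN2 differed by -2.10 ± 0.07 and HO by -2.37 ± 0.06. For OPI3 the 3 nearest were SAM2 at 0.39, PNS1 at 0.39 and MET6 at 0.41, and PNS1 fell by 2.83 ± 0.09. Of these 6 genes, 3 belong to the group that supplies S-adenosylmethionine: MET13, SAM2 and MET6. They are the 3 largest falls of that group, already named above, so their place here is no separate evidence.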

How the data were processed

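Probe set signals of 6 Affymetrix arrays were deposited as log2 values by the authors, and GCOS, RMA and limma are named without versions or order, per the submitters' processing notes; no source used here names the genome build. The log2 values were used as deposited. Of 10928 probe sets, 5498 mapped to 1 budding yeast gene in the platform annotation, with symbols updated through RefSeq, and the highest-mean probe set per gene left 5449 genes. The strain comparison used lmFit and eBayes of limma 3.58.1 (R 4.3.3), two-sided, and p-values were adjusted by Benjamini-Hochberg over all genes, with a threshold of 0.05. Pairs of genes were compared with an exact permutation test in scipy 1.17.1. Differences are nab2-1 minus wild type. The number of arrays limits their precision, and the median SE was 0.063. SEs of single genes are limma's moderated SEs, which draw on the spread of all genes. Those of gene pairs are ordinary SEs. The labels do not say whether samples of a group were separate cultures, so p-values reflect the spread of these samples only, and that may be technical.

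The members, lists and tests were chosen with earlier results of these data known. Named genes were the 10 members, the 3 largest rises and 3 largest falls past the threshold with no overlap in each related list, INO2, INO4, OPI1, FAS1, FAS2 and ACC1, neighbours past the threshold, and the 3 genes most like INO1 and OPI3. The lists came from general knowledge, and every gene on them was measured. Alternatives were quantile and median normalization, scaling to 36 probe sets of spiked poly(A) controls, chromosome medians, trend and robust variance, the replicate number as a block, a filter on dim genes, a threshold of 0.01 and each array left out. The fit was tested on simulated data. The planned promoter motif search was not run, because no sequences were used here. Figures were drawn with matplotlib 3.10.9.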

Additional observations from a re-analysis of the deposited data

How the results depend on the processing

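Each of the 10 phospholipid genes kept its direction and its call under all 14 alternatives, 140 values in all. The count of 10 lower and 0 higher held in each. Not all of these could change the direction. Trend and robust variance, the replicate block, the filter on dim genes and the threshold of 0.01 leave each difference as it was. With each array left out in turn, the median of the 10 genes lay between -1.66 and -1.59. Scaling to the spiked controls moves every difference up by the same amount. It also changes the spread within groups, since each array has its own factor. Calls on that scale follow the size of the difference alone. Scaling to the spiked controls left 7 of the other phospholipid genes and 4 of the regulators called lower. So were 5 of the fatty acid genes, 4 of the methyl donor genes and 3 of the neighbours. Over all 5449 genes, 622 were called lower. Relative to chromosome medians, the regulators called higher fell to 1 and the methyl donor genes called higher to 0. Under that setting 5 named genes of the raised chromosomes changed sign, with SPO14 at -0.083, MET12 at -0.0011, SAM4 at -0.019, FAS1 at -0.48 and FAS2 at -0.41. Scaled to the spiked controls, the neighbours PDC5 and VPS35 changed sign, to 0.10 and 0.010. The call of PDC5 was also lost without nab2-1 replicate 2 or 3 and without wild type replicate 1 or 3 (limma adjusted p from 0.059 to 0.079), under quantile normalization (0.062), relative to chromosome medians (0.16) and at the threshold of 0.01.

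The values gave no sign that replicate numbers pair the arrays, but 3 arrays per group are too few to tell. Deviations from the group means of same-numbered arrays correlated at -0.19, 0.19 and -0.14, and 1 of 3 nab2-1 arrays correlated best with its own number. With the replicate block, all 10 genes were called lower, and over all genes 1932 were lower and 1582 higher. The replicate block changed no call among the 52 named genes. The motif alternative was not run, for lack of sequences. How much control RNA was spiked into each sample is not known here, and 3 arrays per group limit the precision of every value.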
